A study of Mus musculus with 28 samples.

Results

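The RNA that tagged ribosomes left behind in mouse hypothalamus was examined 10 h after leptin. Of the 28 libraries of the study, 7 were depleted libraries of the 10 h experiment, chosen by their titles: 3 of wild-type mice given leptin, 1 of wild-type mice given vehicle, 2 of ob/ob mice given vehicle and 1 of ob/ob mice given leptin. Every mouse, controls included, carried the LepRbeGFP-L10a reporter, which puts an eGFP-tagged ribosomal protein into cells that express LepRb, the long leptin receptor isoform. The ob/ob mice carried in addition the Lepob/ob genotype, which removes functional leptin. Male and female mice of 10 to 13 weeks lost their food at lights-on and received metreleptin, a leptin analogue, at 5 mg per kg into the peritoneum, or vehicle. The vehicle is saline in the protocol and PBS in the treatment labels. Hypothalami were lysed, antibodies to eGFP captured the tagged ribosomes (the bead fraction), and the remaining liquid gave the depleted fraction described here. No source used here states how many mice make a lysate, so p-values measure the spread between lysates.

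Leptin is made by fat cells and signals through LepRb, which activates the kinase JAK2 and the transcription factor STAT3. STAT3 induces Socs3, whose product inhibits the receptor complex, and in arcuate neurons leptin restrains Agrp and Npy and supports Pomc. LepRb neurons are a minority of hypothalamic cells, so depleted RNA comes mostly from other neurons, glia and vessels, and from untagged RNA of the LepRb cells.

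The 7 depleted libraries held 19649105 to 41804049 counted reads. Pairs of replicates differed by 7.66 to 15.9 times the counting noise per gene (chi-square per gene), so no pair was alike within sampling noise. The 8 wild-type and 6 ob/ob libraries of 10 h came from separate sequencing runs, so genotype and run cannot be told apart. Within each genotype, leptin and vehicle libraries shared a run. The receptor gene Lepr was at 1.92 to 3.32 CPM (counts scaled to library size, with TMM factors within a fraction) in depleted RNA and at 8.67 to 11.7 CPM on the beads of the same lysates. All 7 libraries carried hypothalamic transcripts: Hap1 was at 845 to 1059.8 CPM and the neuropeptide gene Avp at 86.8 to 355 CPM. All 7 also carried Xist, at 5.29 to 22.7 CPM, and the Y-linked Ddx3y, at 28.6 to 49.8 CPM, whereas each 3 h library held 1 of the pair at 0.181 CPM or less. The 10 h lysates thus held RNA of both sexes. Leptin mRNA itself had too few reads to be tested in these libraries, so the counts do not check the ob allele.

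Among 19115 genes tested with edgeR's quasi-likelihood test, 1 passed an adjusted p of 0.05 for the leptin effect averaged over both genotypes, which is 0.00523% of them. That gene, Strip2, fell. In wild type 53 genes passed (0.277%), of which 52 fell (0.272%) and 1, Calb2, rose. No gene passed in ob/ob, where the lowest adjusted p was 0.9998. Unadjusted p-values under 0.05 numbered 1717 for the mean effect (8.98%), 1728 in wild type (9.04%) and 910 in ob/ob (4.76%), against 956 expected with no difference. DESeq2 called 116, 162 and 1 genes and limma voom 1, 85 and 0. The test of ob/ob minus wild type called 0 genes with edgeR, 1 with DESeq2 and 0 with limma voom, and 859 had an unadjusted p under 0.05 (4.49%). Without wild-type leptin library 1 or 3 the wild-type calls fell from 53 to 3 and 1, Strip2 among them each time. Without ob/ob vehicle 1, which left 1 library in each ob/ob arm, ob/ob calls appeared that included the cerebellar genes Car8, Cbln3 and Pcp2. These were high in the remaining vehicle library (Cbln3 at 37.0 CPM against 1.36 CPM in ob/ob leptin). Each genotype has 1 arm of 1 library, which borrows the spread of the other groups.

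Strip2 encodes striatin-interacting protein 2, a subunit of the STRIPAK phosphatase and kinase complex (ENSMUSG00000039629, chr6:29917012-29959681 on the plus strand of GRCm38). It stood at 32.7, 32.8 and 29.6 CPM in the wild-type leptin libraries and at 73.0 CPM in the wild-type vehicle library. It stood at 37.2 and 41.7 CPM in the ob/ob vehicle libraries and at 32.2 CPM in the ob/ob leptin library. The groups did not overlap in either genotype, and the 1 library that stood apart was the wild-type vehicle library. The 7 depleted libraries of 3 h, leptin and vehicle together, lay between 26.7 and 31.6 CPM, below every vehicle library of 10 h. The wild-type mean after leptin was 31.7 ± 1.83 CPM (SD, n = 3).

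The mean log2 fold change of Strip2 was -0.75 (SE 0.07, edgeR adjusted p = 0.000937), a 1.68-fold fall. In wild type it was -1.20 (SE 0.09, edgeR adjusted p = 3.57e-05) and in ob/ob -0.29 (SE 0.11), which did not pass. The difference between the genotypes was 0.91 (SE 0.15, edgeR adjusted p = 0.327, lower than for any other gene tested). The wild-type effect at 10 h minus that at 3 h was -1.15 (SE 0.12, edgeR adjusted p = 0.00121), and Strip2 was the 1 gene of 19115 past the threshold in that comparison (0.00523%, with 874 genes, 4.57%, at an unadjusted p under 0.05). Both comparisons share the wild-type 10 h libraries. In wild-type beads of the same lysates Strip2 was at 13.0, 14.7 and 11.8 CPM after leptin against 24.2 CPM, and the bead mean effect did not pass. In ob/ob beads Strip2 stood at 15.99 and 25.7 CPM with vehicle and 17.0 CPM with leptin, so the groups overlapped there.

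The windows around the annotated starts of Strip2 and of Socs3, the textbook STAT3 target described further on, are shown because both hold the palindrome TTCNNNGAA, the general form of a STAT site. Each runs from 250 bases before the start to 50 after it, taken from RefSeq (GRCm38.p6), 5′ to 3′ on the gene's strand, with the match in capitals. Strip2 is at chr6:29916763-29917062 (plus strand) and Socs3 at chr11:117969317-117969616 (minus strand).
Strip2: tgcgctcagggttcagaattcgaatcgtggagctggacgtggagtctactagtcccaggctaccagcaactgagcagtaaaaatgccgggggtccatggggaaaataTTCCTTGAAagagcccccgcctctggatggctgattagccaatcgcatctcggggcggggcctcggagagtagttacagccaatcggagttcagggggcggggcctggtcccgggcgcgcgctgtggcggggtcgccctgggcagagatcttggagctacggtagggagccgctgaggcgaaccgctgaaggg
Socs3: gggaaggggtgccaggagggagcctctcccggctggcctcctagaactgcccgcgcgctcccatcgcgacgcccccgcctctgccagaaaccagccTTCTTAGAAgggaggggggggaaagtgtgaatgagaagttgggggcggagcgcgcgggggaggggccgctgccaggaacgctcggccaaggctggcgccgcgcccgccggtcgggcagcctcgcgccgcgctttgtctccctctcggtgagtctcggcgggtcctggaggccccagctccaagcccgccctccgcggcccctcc
The match begins 143 bases before the RefSeq start in Strip2 and 154 bases before it in Socs3. In the other GRCm38 annotation used here for gene positions, Socs3 spans chr11:117966079-117970047. Its window lies inside that span, downstream of the start given there. The motif occurred in 2726 of 32851 mouse promoter windows of this length (8.3%), and in 3 of the 16 looked-up genes with a window (Strip2, Socs3 and Rarb). A match describes the letters only.

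**Figure D1:**
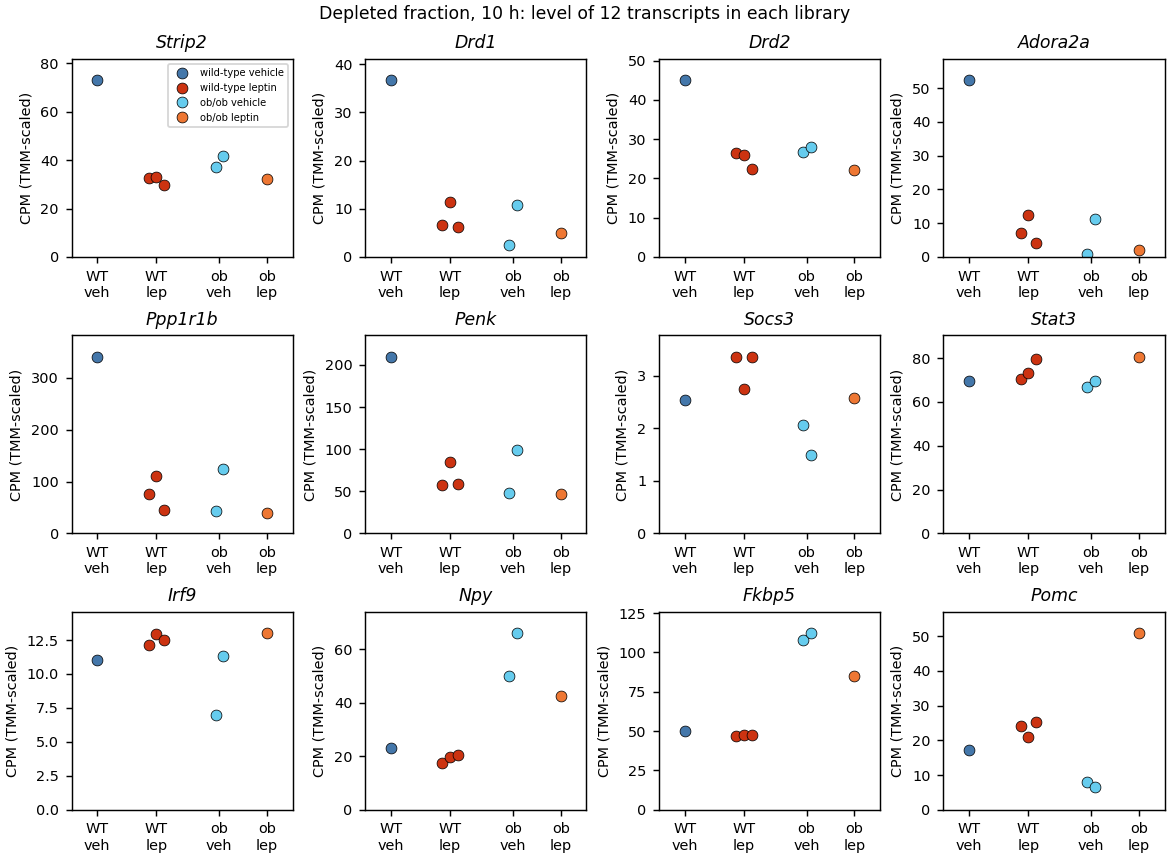
Level of 12 transcripts in each of the 7 depleted libraries of 10 h, in CPM on a linear axis from 0, 1 point per library (WT, wild type; ob, ob/ob; veh, vehicle; lep, leptin). The wild-type vehicle library stands alone for Strip2 and the 5 striatal genes (Ppp1r1b at 341 against 46.0 to 111 after leptin), the ob/ob leptin library stands alone for Pomc at 50.9, and Stat3 lies between 66.9 and 80.6 in all 7.

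In wild type the 52 genes that fell were led, among those with a mean of at least 1 CPM, by Wnt2, Ankrd33b, Lpl, Slc35d3, 1810020O05Rik, Scn4b, Strip2, Rarb, Chst15 and Nt5e. Wnt2, a secreted Wnt ligand, was at 0.791, 0.961 and 0.875 CPM after leptin and at 3.25 CPM with vehicle (log2 fold change -1.88, SE 0.23, edgeR adjusted p = 0.00811). Lpl, which encodes lipoprotein lipase, was at 3.56, 5.56 and 3.88 CPM against 12.2 CPM (-1.49, SE 0.23, adjusted p = 0.0177). Scn4b, a sodium channel beta subunit abundant in striatum, was at 61.9, 78.3 and 57.7 CPM against 163 CPM (-1.30, SE 0.18, adjusted p = 0.0177). In all of these the vehicle library was above every leptin library, as it was in 52 of the 52, against 31.3% of all genes tested. The genes were called by comparing these same libraries, so this count is a description.

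Rarb, a retinoic acid receptor prominent in striatum, was at 4.67, 5.19 and 4.56 CPM after leptin against 10.9 CPM (-1.18, SE 0.17, adjusted p = 0.0177). Nt5e, the ectonucleotidase that forms adenosine, was at 3.31, 4.87 and 3.83 CPM against 8.71 CPM (-1.12, SE 0.20, adjusted p = 0.0282). Chst15, a chondroitin sulfotransferase, was at 10.6, 13.5 and 9.29 CPM against 25.0 CPM (-1.17, SE 0.19, adjusted p = 0.0211). Rarb overlaps Top2b on the other strand and Chst15 overlaps Fgfr2 on the same strand, so their reads may include some of those neighbours. Ptpn7 and Gm9989 had larger estimates (-2.54 in Ptpn7), but were at 1.67 CPM or less in each 10 h library; they are named after their values were seen.

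The size of the 52 falls ran from -2.54 to -0.41 log2 units, with a median of -0.85, against a median of 0.02 over all genes tested. In 52 of the 52 the wild-type vehicle library was the highest of all 14 depleted libraries, 3 h included, which held for 9.22% of all genes tested. On the beads of the same lysates the wild-type vehicle library exceeded all 3 leptin libraries for 41 of the 52, against 30.2% of all genes, with a median bead effect of -0.48. At 3 h the median effect of the 52 in wild-type depleted RNA was -0.18. These genes were called with the same vehicle library, and the beads share its lysate. Its position among the leptin libraries is thus a description in both fractions.

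**Figure D2:**
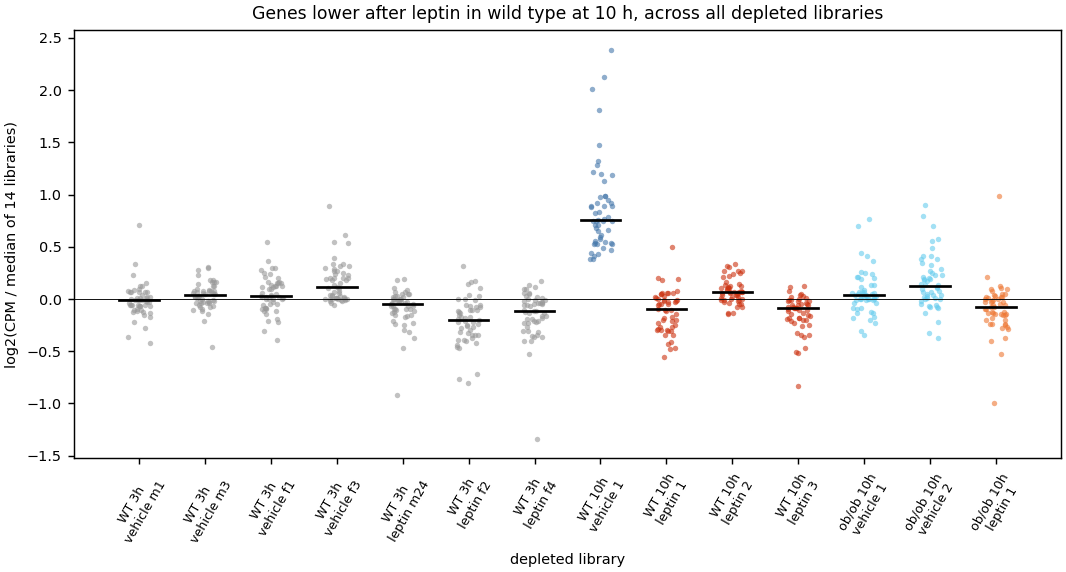
The 52 genes that fell after leptin in wild type at 10 h, in all 14 depleted libraries; the y axis is log2 of CPM over the gene's median of the 14 libraries, each point 1 gene and each bar the median over genes. The wild-type vehicle library of 10 h is high for all 52, with a median of 0.75, while the medians of the other 13 libraries lie between -0.20 and 0.12.

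The ob/ob libraries, which had no part in calling these genes beyond the shared estimate of spread, gave smaller values. The ob/ob estimate was negative for 40 of the 52, with a median of -0.19 against -0.00 over all genes, and reached the wild-type size in 0 of the 52. The 52 were picked for large wild-type falls, and that choice alone favours smaller ob/ob values. The difference in size is thus a description and does not show a weaker response in ob/ob. The ob/ob leptin library lay below both vehicle libraries for 36 of the 52, against 30.2% of all genes, and above both for 9 of the 52, against 30.6%. Lpl was at 7.501 and 7.12 CPM with vehicle and 4.03 CPM with leptin, an estimate of -0.86 (SE 0.29) that did not pass. Rarb went the other way, at 3.62 and 3.56 CPM against 4.39 CPM (0.29, SE 0.22). The difference between genotypes had an adjusted p under 0.05 for 0 of the 52, as for 0 of all genes tested.

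Calb2, which encodes the calcium-binding protein calretinin, was the 1 gene that rose in wild type. It was at 475, 469 and 469.9 CPM after leptin against 351 CPM with vehicle (0.43, SE 0.07, edgeR adjusted p = 0.0177). The ob/ob libraries had 469 and 463 CPM with vehicle and 499 CPM with leptin (0.10, SE 0.07), and the 3 h libraries 445 to 493 CPM. The wild-type vehicle library was thus the lowest of the 14, and the other 13 lay close together. The Calb2 call held in 10 of 13 alternatives. It was lost without wild-type leptin library 1 (edgeR adjusted p = 0.0708) or 3 (0.089), and with the striatal marker level as a covariate, described further on.

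**Figure D3:**
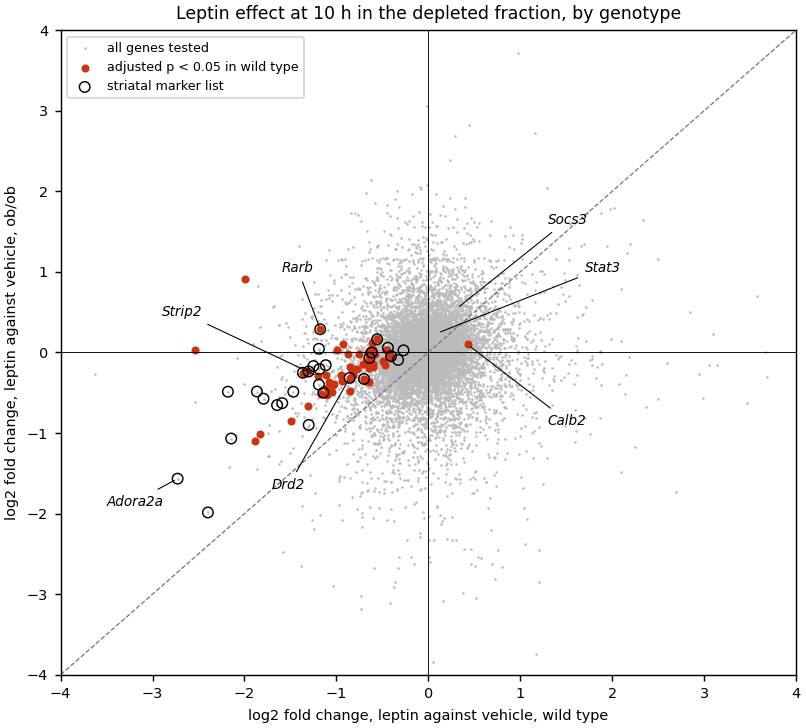
Leptin effect of each gene in wild type (x axis) against ob/ob (y axis), as log2 fold change at 10 h in the depleted fraction; grey points are all genes tested, of which 22 lie outside the axes, red points the 53 genes with an adjusted p under 0.05 in wild type, circles the 28 striatal markers, and the dashed line equal effects. The red points and circles spread along the negative x axis and stay nearer 0 on the y axis (striatal medians -1.19 and -0.28).

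Transcripts of the striatum, a forebrain region of dopamine-responsive medium spiny neurons near the hypothalamus, were highest in the wild-type vehicle library. Of 28 striatal markers, 7 fell in wild type (Drd2, Pde1b, Tac1, Rarb, Syndig1l, Scn4b and Slc35d3), against 0.272% of all genes, and 27 had an unadjusted p under 0.05 for a fall, against 5.57%. The wild-type vehicle library was the highest of the 14 depleted libraries for 28 of the 28, against 9.22% of all genes tested. That this library is rich in striatal transcripts was known when the comparison was set up, so these counts are a description and not a test. The list median was -1.19 in wild type and -0.28 in ob/ob, and the latter turned positive (0.02) without ob/ob vehicle library 2. In bulk RNA, fewer cells of a type and less RNA per cell cannot be told apart.

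Drd1, the D1 dopamine receptor of direct-pathway neurons, was at 6.58, 11.5 and 6.197 CPM after leptin against 36.7 CPM in wild-type vehicle. Adora2a, the adenosine receptor of indirect-pathway neurons, was at 7.15, 12.5 and 4.14 CPM against 52.3 CPM. Ppp1r1b, which encodes DARPP-32, was at 75.1, 111 and 46.0 CPM against 341 CPM. Their wild-type estimates were -2.18, -2.73 and -2.14, and none passed (adjusted p = 0.373, 0.511 and 0.498). They varied also among libraries of 1 group: in ob/ob vehicle Adora2a was at 0.856 and 11.3 CPM, with 2.12 CPM in ob/ob leptin, and Ppp1r1b at 42.6 and 124 CPM, with 40.0 CPM.

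Drd2, the D2 dopamine receptor, is also made outside the striatum and varied less: 26.4, 25.9 and 22.4 CPM after leptin against 45.02 CPM in wild type (-0.86, SE 0.14, edgeR adjusted p = 0.0184). In ob/ob it was at 26.7 and 28.1 CPM with vehicle and 22.04 CPM with leptin. Penk, the enkephalin precursor, was at 57.8, 85.1 and 58.2 CPM against 209.8 CPM and did not pass. The vehicle library of wild type was above all others for both genes.

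The mean log2 level of the striatal list was 5.90 in the wild-type vehicle library and 4.64, 4.92 and 4.48 in the wild-type leptin libraries. It was 4.22 and 4.90 in ob/ob vehicle, 4.31 in ob/ob leptin and 4.19 to 4.98 at 3 h. The beads showed the same order in wild type, with 5.10 for vehicle and 4.18 to 4.38 for leptin. With this level as a covariate, an alternative added after seeing the data, wild-type calls went from 53 to 12, of which 1 (Strip2) was shared, and Strip2 no longer passed for the mean effect (-0.63, edgeR adjusted p = 0.0909). The wild-type vehicle arm is 1 library, so library and treatment cannot be told apart. The covariate was highest in that same library, so it overlaps the wild-type comparison and cannot separate library from treatment.

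**Figure D4:**
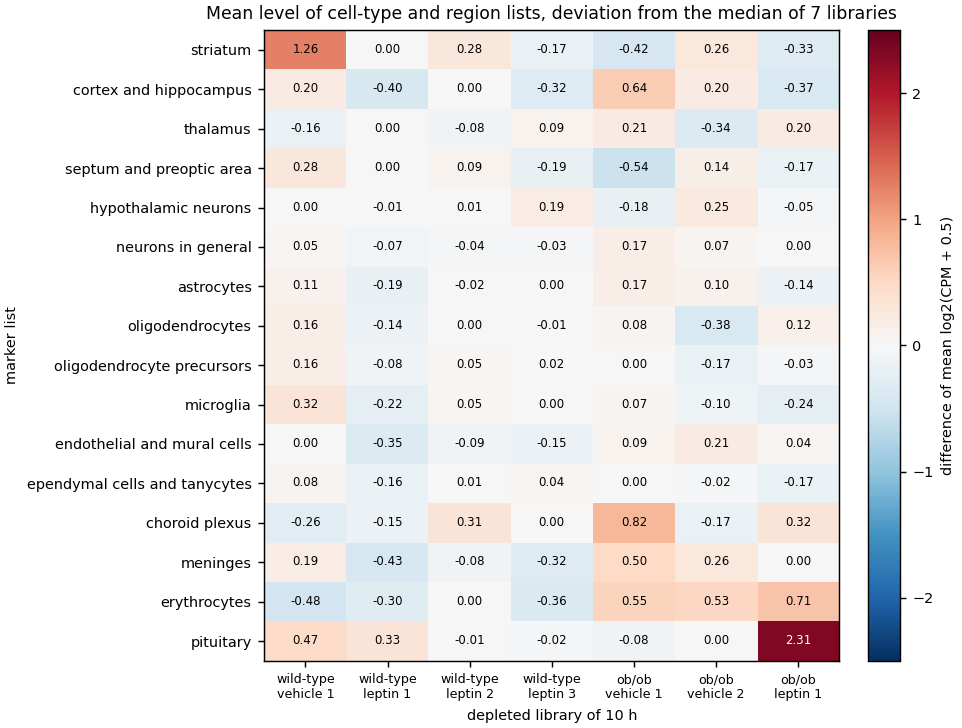
Mean log2(CPM + 0.5) of 16 cell-type and region marker lists in each of the 7 depleted libraries of 10 h, as the difference from the list's median over the 7 libraries (colour and printed value). The largest deviations are the striatal list in wild-type vehicle (1.26) and the pituitary list in ob/ob leptin (2.31).

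Of 24 JAK-STAT genes tested in depleted RNA, 0 passed in either direction for the mean effect, in wild type or in ob/ob. Over all genes 0.00523%, 0.277% and 0% passed, so a list of this size would hold few calls or none at the background share. The mean effect had an unadjusted edgeR p under 0.05 for 3 of the 24 (2 higher and 1 lower), near the 8.98% of all genes. The list median was 0.06 against 0.01 over all genes. Socs3 was at 3.34, 2.74 and 3.36 CPM after leptin against 2.54 CPM in wild type, and at 2.57 CPM after leptin against 2.06 and 1.497 CPM in ob/ob. Every leptin library was above every vehicle library, by a narrow margin across genotypes (2.57 against 2.54 CPM), and the effect did not pass (mean effect 0.43, SE 0.22, edgeR adjusted p = 0.598). Stat3 was at 70.6, 73.2 and 79.7 CPM against 69.7 CPM in wild type, and at 80.6 CPM against 66.9 and 69.7 CPM in ob/ob (0.17, SE 0.07, adjusted p = 0.514). Stat3 overlaps Stat5a on the other strand, and the kit did not mark strand.

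Irf9, a partner of STAT proteins, was at 12.2, 12.9 and 12.5 CPM after leptin against 11.1 CPM in wild type, and at 13.0 CPM against 6.998 and 11.3 CPM in ob/ob (0.34, SE 0.15, adjusted p = 0.533). Atf3, a stress-induced transcription factor, was at 1.06 to 1.28 CPM after leptin against 0.772 CPM in wild type, and at 0.958 CPM against 0.805 and 0.890 CPM in ob/ob (0.39, SE 0.27, adjusted p = 0.698). Serpina3n, an acute-phase protease inhibitor, overlapped between arms in both genotypes (0.18, SE 0.26, adjusted p = 0.879). Timp1, an inhibitor of metalloproteinases, was at 0.162 to 0.615 CPM in every library. Its leptin libraries were above vehicle within both genotypes, and the mean effect did not pass (1.11, SE 0.61, edgeR adjusted p = 0.611). Of 16 leptin targets named in earlier work, 7 had every leptin library above every vehicle library within both genotypes, against 12.1% of all genes, and 0 passed. The list was chosen with earlier results of these data known, so it is not independent evidence of direction.

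The bead fraction of the same 7 lysates gave the reference for size. There Stat3 was at 238, 247 and 302 CPM after leptin against 169 CPM in wild type, and at 235 CPM against 77.0 and 79.4 CPM in ob/ob. Socs3 was at 17.7, 15.0 and 28.3 CPM against 7.42 CPM, and at 13.9 CPM against 1.69 and 1.52 CPM. Every bead leptin library was above the vehicle libraries of its genotype for both genes. Stat3, Socs3, Irf9 and Timp1 were the 4 genes of 18212 that passed on beads (0.022%). The bead effect of Stat3 exceeded the depleted effect by 0.95 (SE 0.14, edgeR adjusted p = 0.0554) and that of Socs3 by 1.85 (SE 0.28, adjusted p = 0.0554). The excess was 0.99 for Irf9 (SE 0.16, adjusted p = 0.0742) and 1.48 for Serpina3n (SE 0.22, adjusted p = 0.0665).

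Bead minus depleted called 0 of 19682 genes with edgeR and 50 with DESeq2, with 1329 at an unadjusted p under 0.05 (6.75%). Without the lysate of 3 h leptin f2, Stat3, Socs3, Irf9 and Serpina3n passed (Stat3 and Socs3 at edgeR adjusted p = 0.00577), and over all alternatives the adjusted p ran from 7.72e-09 to 0.117 for Stat3 and from 1.65e-09 to 0.234 for Socs3. Without ob/ob vehicle lysate 1, 51 genes passed, these 4 among them (Stat3 at edgeR adjusted p = 0.0164). Smaller differences were found for Etv6 (0.44, SE 0.16), Cish (0.37, SE 0.24) and Arid5a (0.60, SE 0.25), none of which passed. The size of this difference is not given here for Timp1 and Atf3.

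**Figure D5:**
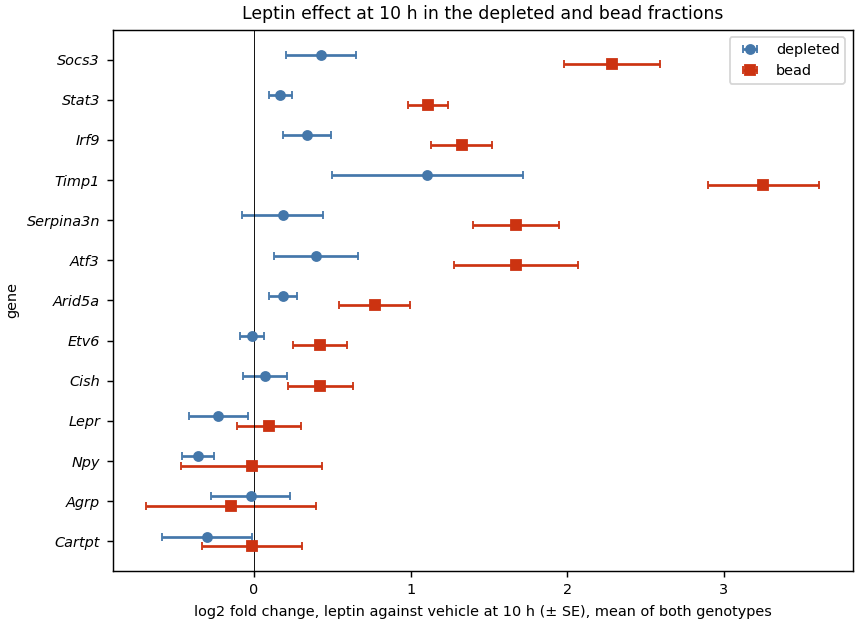
Leptin effect at 10 h, mean of both genotypes, for 13 genes of leptin action in the depleted fraction (circles) and on beads (squares), as log2 fold change with its SE on the x axis. Socs3 is at 0.43 in depleted RNA and 2.29 on beads, Stat3 at 0.17 and 1.11, while Npy, Agrp and Cartpt lie between -0.36 and -0.02 in both.

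Of 24 feeding neuropeptides tested, 2 fell in wild type, Pdyn and Tac1, against 0.272% of all genes, and 0 passed for the mean effect or in ob/ob. Pdyn, the dynorphin precursor, was at 21.3, 26.8 and 29.2 CPM against 49.7 CPM (-0.94, SE 0.17, edgeR adjusted p = 0.0456), and Tac1, the substance P precursor, at 54.3, 56.2 and 59.9 CPM against 92.3 CPM (-0.70, SE 0.13, adjusted p = 0.047). Both are made in striatum as well as hypothalamus, and the striatal list was high in the same vehicle library. For 8 of the 24, every leptin library was below every vehicle library in both genotypes, against 12.3% of all genes, and the list median was -0.19 for the mean effect.

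Npy, the orexigenic neuropeptide Y, was at 17.4, 19.6 and 20.5 CPM after leptin against 23.2 CPM in wild type, and at 42.4 CPM against 49.8 and 65.95 CPM in ob/ob. Leptin libraries were below vehicle in both genotypes, and the mean effect did not pass (-0.36, SE 0.10, edgeR adjusted p = 0.306). Agrp, made by the same neurons, was at 3.06, 3.35 and 4.68 CPM against 3.12 CPM in wild type, and at 12.6 CPM against 12.7 and 18.3 CPM in ob/ob (-0.02, SE 0.25). Cartpt was at 54.0, 48.8 and 53.7 CPM against 60.4 CPM, and at 43.4 CPM against 60.2 and 53.5 CPM (-0.30, SE 0.29). The ob/ob libraries exceeded the wild-type libraries in Npy and Agrp whatever the treatment, a contrast that coincides with the run.

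Pomc, the melanocortin precursor, was at 24.2, 21.0 and 25.4 CPM against 17.4 CPM in wild type, and at 50.9 CPM against 7.90 and 6.55 CPM in ob/ob (mean effect 1.63, SE 1.31, edgeR adjusted p = 0.762). The ob/ob leptin library also held pituitary transcripts: growth hormone (Gh) was at 129 CPM there and at 1.61 CPM or less in the other 10 h libraries, and prolactin (Prl) at 20.4 CPM against 2.41 CPM or less. All 7 pituitary markers tested were above both ob/ob vehicle libraries, against 30.6% of all genes. With the 7 libraries of 10 h fitted alone, Pomc passed for the mean effect (1.63), in ob/ob (2.82) and for the difference between genotypes. On beads, Pomc was at 161 CPM in ob/ob leptin against 99.0 and 59.0 CPM. The beads of that lysate were also rich in pituitary transcripts. The mean log2 level of the pituitary list on beads was 2.10 in ob/ob leptin against 0.61 and 0.67 in ob/ob vehicle. The part of pituitary RNA in the Pomc values of either fraction was not tested.

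Glucocorticoid and fasting genes were mostly lower after leptin in ob/ob, where 0 passed. For 17 of 20 the ob/ob leptin library was below both vehicle libraries, against 30.2% of all genes, with a list median of -0.28 in ob/ob and 0.07 in wild type. Fkbp5, a cochaperone of the glucocorticoid receptor, was at 108 and 112 CPM with vehicle and 85.1 CPM with leptin in ob/ob (-0.37, SE 0.10). In wild type it was at 46.7, 47.5 and 47.2 CPM after leptin and 50.2 CPM with vehicle (-0.09, SE 0.09). Mt2, a metallothionein, was at 40.5 and 31.9 CPM with vehicle against 22.6 CPM in ob/ob, and at 18.8 to 20.2 CPM in the wild-type libraries. The leptin value in ob/ob lay between the ob/ob vehicle and the wild-type levels for both genes, and it rests on 1 library. The wild-type levels come from another sequencing run, so genotype and run cannot be told apart in this comparison.

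Activity-dependent genes had no member past the threshold in either genotype. Of 26 immediate early genes, 20 had a positive estimate in wild type and 8 in ob/ob. Fos was at 21.1, 20.4 and 32.6 CPM after leptin against 7.01 CPM in wild type (1.82, SE 0.57, edgeR adjusted p = 0.404), and at 25.5 CPM against 24.3 and 38.9 CPM in ob/ob. The wild-type vehicle library was the lowest of the 14 for Fos, as it was for 9 of the 26, against 10.8% of all genes. Egr3 was below vehicle in both, at 8.41, 12.2 and 6.39 CPM against 27.7 CPM and at 5.90 CPM against 15.0 and 15.7 CPM (mean effect -1.50, SE 0.39, adjusted p = 0.308). Of 19 clock genes 1 fell in wild type, against 0.272% of all genes: Npas2, a CLOCK paralogue of the forebrain, at 20.5, 21.1 and 20.01 CPM against 32.0 CPM (-0.64, SE 0.11, adjusted p = 0.0222). The ob/ob estimate of Npas2 was 0.02. For both Egr3 and Npas2 the wild-type vehicle library was the highest of the 14, against 9.22% of all genes. Per1 was close to level (0.06, SE 0.09).

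Several lists lay below vehicle in both genotypes with 0 genes past the threshold. All 7 mitochondrially encoded genes tested did so, with mt-Co1 at 1921, 2058 and 2316 CPM against 2479 CPM in wild type and at 2033 CPM against 2624 and 2460.1 CPM in ob/ob (mean effect -0.28, SE 0.12, edgeR adjusted p = 0.524). So did 14 of 25 ER stress genes, against 12.3% of all genes, among them the chaperone gene Canx (177, 211 and 217 CPM against 260.2 CPM, and 214 CPM against 260.1 and 252 CPM). Microglial genes did so for 7 of 12, with the receptor Csf1r at 12.7, 17.1 and 16.4 CPM against 23.0 CPM, and 13.0 CPM against 16.3 and 16.5 CPM. The list medians for the mean effect were -0.28, -0.22 and -0.31. The mean log2 levels of the mitochondrial and microglial lists in the 7 libraries lay within their 3 h range, and that of the ER stress list did so except in wild-type leptin 1 (5.05, with 5.13 to 5.46 at 3 h).

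Cortical and hippocampal markers were below both vehicle libraries in ob/ob leptin for 14 of 16 (list median -0.60), against 30.2% of all genes, with 0 genes past the threshold. Neurod6 was at 19.0 CPM in ob/ob vehicle 1 and at 2.75 CPM in ob/ob vehicle 2, with 1.77 CPM in ob/ob leptin, so the list was highest in 1 vehicle library. Astrocyte genes were below in ob/ob for 11 of 12 (median -0.29), against the same 30.2%, and oligodendrocyte genes had a median of -0.30 in wild type and 0.27 in ob/ob. Tcf7l2, a thalamic transcription factor gene, was at 319 and 202 CPM in the ob/ob vehicle libraries and 331 CPM in ob/ob leptin. The part of these marker levels in the other results was not tested.

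A set of 10 genes had effects of the same sign and at least 0.5 log2 units in both genotypes with the smallest p-values for the mean, and none passed. The genes were picked for one sign in both genotypes, so that agreement is a description. Of these, 9 were lower after leptin: Wnt2, Lpl, Ankrd33b, Chst15, 1810020O05Rik, Myo5b, Slc17a8, 3300002P13Rik and Gm49593. Wnt2, Lpl, Ankrd33b, Chst15, 1810020O05Rik and Slc17a8 were also among the 52 wild-type falls. For all 52 the wild-type vehicle library was the highest of the 14. Myo5b, a myosin motor of recycling endosomes, was at 14.7, 17.2 and 14.0 CPM against 28.3 CPM in wild type and at 11.4 CPM against 16.9 and 17.0 CPM in ob/ob (-0.73, SE 0.14, edgeR adjusted p = 0.0999). The 1 higher gene, Gm26782, was at 13.4, 13.1 and 13.8 CPM against 8.33 CPM and at 24.3 CPM against 14.1 and 15.4 CPM (0.70, SE 0.13, adjusted p = 0.0899). It overlaps Tep1 on the other strand, so its reads cannot be told apart from those of Tep1.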

How the data were processed

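Poly(A) RNA of bead and depleted fractions was sequenced with single-end reads of 50 cycles, per the labels' protocols. The authors deposited raw read counts per gene. The submitters' processing notes name STAR 2.7.6a and GRCm38.p6; no source used here names the program that counted reads, its strand setting or its annotation release, and the kit did not mark strand, so reads of overlapping genes cannot be separated. The 14 depleted libraries were fitted together with edgeR 4.0.16 (R 4.3.3; TMM, robust quasi-likelihood, 6 groups, 8 residual degrees of freedom) over 19115 genes with at least 10 counts in 3 libraries, with Benjamini-Hochberg adjustment at 0.05. Bead minus depleted used all 28 libraries with lysate as a block, since both fractions come from the same lysate. The mean effect weights the genotypes equally. Alternatives used DESeq2 1.42.0, limma 3.58.1, other scalings, no filter, and left-out libraries. Named genes were those past the threshold (the 10 largest falls of at least 1 CPM in wild type), a fixed list of leptin and striatal genes, leading members of each list (1 gene is not reported here), and the 10 genes of smallest p with one sign in both genotypes. The members, lists and rules were chosen with earlier results of these data known. On simulated data 86% of 2-fold and 96% of 4-fold changes were recovered in wild type, with 9 false calls. In ob/ob 75% and 90% were recovered, with 10 false calls, and for the mean effect 88% and 98%, with 16. Every simulated library was drawn from the same mean level of each gene, and the changed genes averaged at least 1 CPM. The simulation held no regional RNA that differs between lysates, so these shares do not carry over to genes that vary in that way.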

Additional observations from a re-analysis of the deposited data

Results flagged for a closer look

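The leptin effect on Strip2 in wild-type depleted RNA differed between the time points, with a difference of -1.15 on the log2 scale (10 h minus 3 h, edgeR interaction test, SE 0.12, adjusted p = 0.00121). The effect was -1.20 at 10 h and -0.05 at 3 h. The 10 h vehicle arm is 1 library. It is the highest of the 14 depleted libraries for Strip2 and for all 28 striatal markers, against 9.22% of all genes tested. The part of the striatal transcripts in the result was not tested. Time point and sequencing run cannot be told apart.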

How the results depend on the processing

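The count of genes past the threshold depended on the tool and filter. For the mean, wild-type, ob/ob, ob/ob minus wild type and 10 h minus 3 h comparisons and for bead minus depleted, no filter gave 592, 613, 156, 94, 204 and 370 genes, and DESeq2 gave 116, 162, 1, 1, 22 and 50. Limma voom gave 85 in wild type and 2 for 10 h minus 3 h. The 7 libraries alone gave 4 for the mean and 66 in wild type, of which 37 were among the 53, and 1 gene, Pomc, in ob/ob and for the genotype difference. The additive fit gave 12 for the mean without Strip2 (-0.82, adjusted p = 0.182), and leaving out the 3 h lysates rich in pituitary transcripts gave 2. The striatal covariate, added after seeing the data, gave 0 for the mean and 12 in wild type. Library totals gave 1 for bead minus depleted. Leaving out 1 library gave 1 to 16 genes for the mean, 1 to 80 in wild type, 0 to 5 in ob/ob, 0 to 3 for the genotype difference, 1 to 5 for 10 h minus 3 h and 0 to 51 for bead minus depleted. Without the replicate block on lysates, bead minus depleted gave 1 gene, Stat3. No paired analysis was possible because leptin and vehicle libraries share only replicate number 1 within a genotype. The vehicle arm of wild type and the leptin arm of ob/ob are 1 library each and could not be left out of their own comparison. Of the named genes, 464 of 530 values of the mean effect, 368 of 428 in wild type and 273 of 285 in ob/ob kept direction and side of the threshold. The following changed sign. With 1 library left out in turn, the mean effect ran from -0.15 to 0.11 for Agrp, -0.037 to 0.00018 for Etv6, -0.0015 to 0.11 for Per1 and -0.0014 to 0.42 for Serpina3n. The wild-type effect ran from -0.0090 to 0.058 for Etv6 and -0.023 to 0.055 for Cish. The ob/ob effect ran from -0.22 to 0.62 for Serpina3n, -2.42 to 1.299 for Adora2a, -1.16 to 0.95 for Drd1, -0.61 to 0.069 for Fos and -0.12 to 0.10 for Per1, with the extremes without ob/ob vehicle 1 and 2. Library totals gave 0.0068 for Per1 in ob/ob, and the pituitary covariate -0.032 for Serpina3n in ob/ob. The striatal covariate gave means of 1.23 for Adora2a, 0.23 for Agrp, -0.058 for Cish, 0.67 for Drd1, 0.37 for Ppp1r1b and -0.71 for Timp1. In wild type it gave 2.23 for Adora2a, -0.19 for Cish, 0.86 for Drd1, -0.11 for Etv6, 0.12 for Fkbp5, 0.077 for Lepr, 0.065 for Npy, -1.63 for Pomc, 0.95 for Ppp1r1b and -2.21 for Timp1. Adora2a, Drd1 and Ppp1r1b belong to the striatal list, so the covariate adjusted them in part for their own levels. The covariate was also highest in the 1 wild-type vehicle library, so it overlaps the wild-type comparison. The cause of the sign changes was not tested. Genes under 1 CPM, such as Timp1, rest on few reads.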

Other observations

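Single depleted libraries of 10 h carried transcripts of regions outside the hypothalamus, in genes chosen after their values were seen. In ob/ob vehicle 2 the cerebellar granule cell gene Cbln3 was at 37.0 CPM and at 0.686 to 1.66 CPM in the other 6 libraries. Pcp2, a Purkinje cell gene, was at 10.4 CPM there and at 0.0946 to 0.403 CPM in the others, and Car8, also a Purkinje cell gene, at 71.8 CPM against 20.1 to 24.8 CPM. In ob/ob vehicle 1 the cortical transcription factor gene Neurod6 was at 19.0 CPM and at 1.77 to 3.12 CPM in the others. The 3 h libraries had Car8 at 21.2 to 25.9 CPM and Neurod6 at 1.62 to 3.31 CPM.

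Each vehicle library of 10 h, and the ob/ob leptin library, thus stood apart in the markers of some other region (striatum, cortex, cerebellum or pituitary). Hypothalamic neuron markers lay closer together, with a mean log2 level between 4.61 and 5.04 in all 7.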
